A study of Rattus norvegicus with 12 samples.

Results

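The xenobiotic metabolism enzymes described here were the genes on the array whose names mark them as cytochromes P450 of families 1 to 4, UDP-glucuronosyltransferases (Ugt), glutathione S-transferases (Gst), sulfotransferases (Sult), carboxylesterases (Ces), aldehyde oxidases (Aox) or flavin-containing monooxygenases (Fmo). The array design held 125 such genes among 26214 gene names, on 155 of 30367 probes. Their expression was compared in neuron-enriched cerebellar cultures with and without acetamiprid (ACE), a neonicotinoid insecticide.

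The cultures came from the cerebella of Sprague-Dawley rats at postnatal day 1. ACE cultures received 1 µM acetamiprid from day 2 to day 16 in vitro (DIV), and control cultures received the solvent DMSO over the same period. There were 6 control and 6 ACE samples, each an independent culture experiment, and both groups of an experiment came from a single lot of cells pooled from littermates. Each replicate number therefore stood for a control and ACE pair (CvA). The cultures hold neurons, astrocytes, oligodendrocytes and microglia together, so fewer cells of a type and less RNA per cell cannot be told apart in these data.

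Signal was well above background for 75.4% to 91.0% of gene spots per array. Replicates 1, 2 and 3 were each scanned on a day of their own and replicates 4 to 6 on another, and replicate 1 was read out with an older software version. The control array lay at place 1 of its slide and the ACE array at place 3 in all 6 pairs, so place and exposure cannot be told apart. Among the cell type markers, 4 of 5 neuron genes, all 6 granule cell genes, all 7 astrocyte genes, all 8 oligodendrocyte genes and all 8 microglia genes were well above background on all 12 arrays. So were all 5 Purkinje cell genes, 4 of 6 meningeal fibroblast genes, 3 of 6 endothelium genes and 3 of 6 choroid plexus genes. Of 6 hepatocyte genes, Tf, which oligodendrocytes also express, and Fga were well above background on 12 arrays, Apoa1 on 11, Alb on 9, Serpina1 on 6 and Tat on 0. Skeletal muscle genes were also present: 7 of 9 were above background on all 12 arrays, the mean log2 level of the list ran from 7.39 to 11.6 in control and from 7.40 to 10.4 in ACE, and all 10 of its probes read lower in ACE, with a median difference of -1.04 against -0.0050 over all probes. Of the 10, 3 were lower at an unadjusted limma p under 0.05, where 9.73% of all probes tested were lower and 6.9% higher. At the same threshold, 3 of 12 microglia probes were higher and 1 lower, and 2 of 12 oligodendrocyte probes were higher and 1 lower. The neuron list had 1 probe higher, and the Purkinje cell, astrocyte, endothelium and choroid plexus lists had 1 lower each. What part these cells had in the enzyme readings was not tested.

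Drug metabolism is usually described in phases. Cytochromes P450, flavin-containing monooxygenases and aldehyde oxidases oxidise or reduce foreign compounds and carboxylesterases hydrolyse them, after which transferases attach glucuronic acid, glutathione or sulfate so that transporters can carry the product out of the cell. Most of these enzymes are known from the liver, where P450s remove methyl groups from acetamiprid and aldehyde oxidase reduces the nitro group of related neonicotinoids. In the brain, several of them also act on endogenous fatty acids, steroids, retinoids and lipid peroxides, and glutathione S-transferases are abundant in astrocytes.

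Some probes share long stretches of sequence with another probe, and the last 30 bases of 6 probes are shown because the readings of Cyp4a8, Cyp2d1, Cyp2d5 and Gstm3 are set beside those of their partners. Capitals mark bases that lie in a run of at least 12 bases shared with the partner probe of the same set. The Cyp4a8 probe at rn4 chr5:135546881-135546940 on the minus strand shared a run of 28 bases with a probe that carries no gene name, at chr2:50436412-50436471.
Cyp4a8: tcAAAATGTAAATAAGAAATACTCAAGTTA
unnamed probe: gAAAATGTAAATAAGAAATACTCAAGTTAa
The probes of Cyp2d1, at rn4 chr7:120769703-120769762, and Cyp2d5, at chr7:120760436-120760495, both on the minus strand, matched at 56 of 58 aligned bases.
Cyp2d1: CTGAGCCACGTTTAATAAACCAGTCTTttg
Cyp2d5: GAGCCACGTTTAATAAACCAGTCTTgaggc
The pair of Gstm3 probes had the same position in the file, rn4 chr2:203532376-203532435 on the minus strand, and matched at 58 of 60 bases.
Gstm3, tested probe: AAGACCTGTGTTTACTAAGATAgcccagtg
Gstm3, probe not tested: AAGACCTGTGTTTACTAAGATAccgcagtg

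Which enzymes gave a signal differed by family. Each gene was counted by its probe that was well above background on the most arrays. A probe was well above background on an array where most of its spots were flagged so by the scanner software. Of the 125 genes, 48 were well above background on all 12 arrays, 57 on 1 to 11 arrays and 20 on none. Of all 155 probes, 36.8% were well above background on every array, against 66.5% of all probes on the array.

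Glutathione S-transferases had the broadest detection, with 16 of 20 genes above background on all 12 arrays and 0 genes without any signal. They included Gsta4, the alpha class enzyme known for conjugating lipid peroxidation products, the mu class genes Gstm1, Gstm2, Gstm5 and Gstm7, the pi class gene Gstp1, Gsto1, Gstt1, Gstt2 and Gstz1. In family Cyp4, whose members hydroxylate fatty acids and eicosanoids, 9 of 15 genes were above background throughout, among them Cyp4f1, Cyp4f4, Cyp4f5, Cyp4f6 and Cyp4v3. In Cyp2 the figure was 10 of 34, with Cyp2d4, the 2D form best known from rat brain, Cyp2j3 and Cyp2j4, which form arachidonic acid epoxides, Cyp2s1, Cyp2t1 and the fatty acid hydroxylase Cyp2u1 among them.

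The other families were detected in part. Aox1 was above background on all 12 arrays, whereas Aox3 and Aox4 were above it on none. Among glucuronosyltransferases, Ugt1a6, which acts on planar phenols, Ugt1a9 and Ugt2b37 were detected throughout. Sult1a1, the phenol sulfotransferase, and Sult4a1, a brain form with no settled substrate, were the sulfotransferases detected on all 12 arrays. Genes known from liver were found at both ends: Cyp2e1, Cyp2c12, Cyp2c13, Cyp2d2, Ugt2b1 and Sult2a1 were well above background on no array, while Cyp2c11 and Cyp2d1 were on all 12. The Cyp2d1 probe was near-identical to that of Cyp2d5, so its signal does not tell these genes apart.

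**Figure D1:**
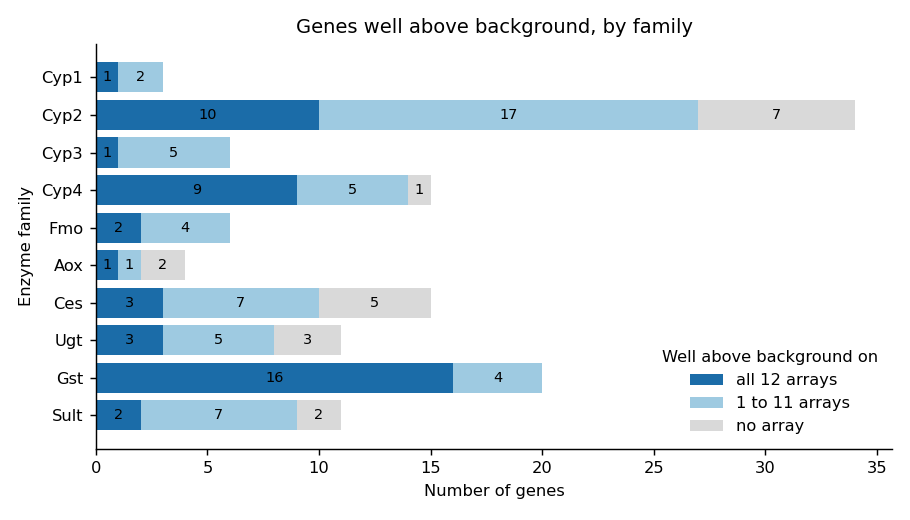
Number of genes (horizontal axis) in each enzyme family (vertical axis) that were well above background on all 12 arrays, on 1 to 11 arrays or on no array. Gst is mostly dark blue, with 16 of 20 genes detected on all arrays, while Cyp2 has 10 of 34.

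The comparison of ACE with control was run on probes above the 20th percentile of their array on at least 7 arrays. This left 83 of the 155 probes, of 69 genes, and 72 were not tested. Cyp1a2, Cyp2e1, Ugt2b and Ces1d were on the array but not tested. Levels are given as log2 of the quantile-normalised intensity of a probe, and differences as the mean over the 6 pairs of ACE minus control on the same scale.

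None of the enzymes passed the adjusted threshold. In limma with replicate as a block, 0 of the 83 probes had a Benjamini-Hochberg adjusted p under 0.05, the lowest being 0.147 for Cyp2s1, and the share over all 23796 probes tested was 0.0%. The unadjusted limma p was under 0.05 for 8 of the 83 probes (9.64%), against 16.6% of all probes tested. Of the 8, 3 were higher and 5 lower in ACE, against 6.9% of all probes higher and 9.73% lower. The split depended on the scaling, with 2 higher and 9 lower after a shift of each array to its 75th percentile (which moved the median of all probes from -0.0050 to -0.033), and 5 higher and 5 lower in the authors' deposited log2 values. The same direction in all 6 pairs was seen for 7 of the 83 probes, against 11.6% of all probes. The probes of Ces5a, Ces1f, Ugt1a6 and Cyp4v3 were higher and those of Cyp2s1, Cyp2d4 and Gstt1 were lower in every pair, and for each of them another probe of the gene, where there was one, did not have the same direction in every pair. In none of the 83 probes were the control and ACE arrays separated (0 without overlap), and over all probes tested the share was 0.0126%.

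None of the 83 probes (0) had a mean difference of 1.5-fold or more, against 1.72% of all probes tested. The 95% confidence interval of the difference lay within 1.5-fold on both sides for 67 of the 83, and for 55 of the 57 probes above background on all 12 arrays, where 96.1% of all such probes did. The median difference over the 83 probes was -0.029 on the log2 scale, with 37 probes higher and 46 lower (55.4% lower), and over all probes it was -0.0050, with 52.2% lower.

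**Figure D2:**
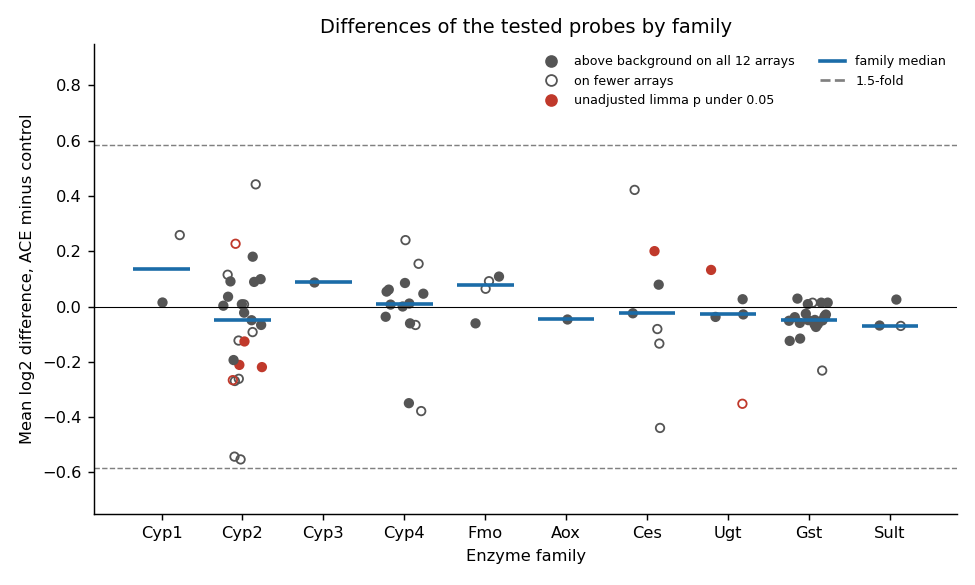
Mean log2 difference between ACE and control (vertical axis) of each tested probe, by enzyme family (horizontal axis). Filled points were above background on all 12 arrays, open points on fewer, red points had an unadjusted limma p under 0.05, blue bars are family medians and dashed lines mark a 1.5-fold change. All 83 points lie inside the dashed lines, and 8 are red.

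Among the P450s that act on foreign compounds, Cyp2s1, an extrahepatic form, had the lowest p of the group. Its probe at rn4 chr1:81009033-81009092 ran from 6.70 through a median of 6.91 to 7.79 in control, and from 6.57 through 6.69 to 7.55 in ACE. It was lower in ACE in 6 of 6 pairs, although the ranges of the groups overlapped. The difference was -0.22 ± 0.05 (SE, n = 6 pairs; limma unadjusted p = 0.0028, adjusted p = 0.147). A second Cyp2s1 probe, at chr1:81008468-81008527 and also above background on all 12 arrays, differed by 0.04 ± 0.06 and was higher in 4 of 6 pairs. The third probe, above background on 8 arrays, gave -0.55 ± 0.76, which became 0.10 without replicate 6 and -1.22 without replicate 4. The Cyp2s1 probes thus did not give a common value.

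Cyp2d4 was read by a pair of probes above background on all 12 arrays. The probe at rn4 chr7:120743218-120743277 ran from 10.6 through 11.5 to 12.1 in control and from 10.4 through 11.3 to 12.1 in ACE. It was lower in ACE in 6 of 6 pairs, by -0.13 ± 0.04 (SE, n = 6 pairs; limma unadjusted p = 0.0222, adjusted p = 0.233), with pair differences from -0.22 to -0.001. The unadjusted p rose above 0.05 without replicate 2, 5 or 6 and with replicate as a random block (0.176). The other Cyp2d4 probe, at chr7:120741633-120741692, differed by 0.00 ± 0.05 and was higher in 2 of 6 pairs. Cyp2d1 and Cyp2d5, whose probe ends are printed above, read 0.09 ± 0.06 each, with a correlation of 0.993 over the 12 arrays (a description of near-identical probes on the same arrays). The readings of these probes are not independent of each other.

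The remaining P450 probes at an unadjusted p under 0.05 were dimmer. Cyp2b15 was 4.31 to 6.34 in control (median 4.81) and 3.96 to 5.97 in ACE (median 4.78), lower in 5 of 6 pairs by -0.27 ± 0.09 (limma adjusted p = 0.230). It was above background on 9 of the 12 arrays. Its other probe, which matched it at 52 of 58 bases, gave -0.54 ± 0.38, with pair differences from -2.24 in replicate 6 to 1.01 in replicate 5. Cyp2c11, known as a form of the male rat liver, was 5.78 to 6.85 in control (median 6.24) and 5.77 to 6.66 in ACE (median 6.00), and lower in 5 of 6 pairs by -0.21 ± 0.07 (adjusted p = 0.244 in limma). Cyp2r1, a vitamin D 25-hydroxylase, was 3.14 to 4.97 in control (median 4.11) and 3.41 to 5.09 in ACE (median 4.29), and higher in 5 of 6 pairs by 0.23 ± 0.09 (limma adjusted p = 0.265). For each of the 8 probes at an unadjusted p under 0.05 except Ugt2b17, the SD within both groups exceeded the difference between them. These SDs include the spread between culture experiments, which the pairing takes out of the difference. With the normexp background the values shrank to -0.12 for Cyp2b15, -0.09 for Cyp2c11 and 0.05 for Cyp2r1, and Cyp2r1 was at 0.11 after the 75th percentile shift. The unadjusted limma p rose above 0.05 with the normexp background for Cyp2c11 and Cyp2r1 but not for Cyp2b15, and for Cyp2r1 also after the 75th percentile shift and with a trended robust variance. It also rose above 0.05 without replicate 1, 2, 4 or 5 for Cyp2b15, and without replicate 1, 3, 5 or 6 for Cyp2c11 and Cyp2r1.

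Other Cyp2 genes did not pass the unadjusted threshold. Cyp2u1 differed by 0.10 ± 0.07 and Cyp2j10 by 0.18 ± 0.10, each higher in 5 of 6 pairs. The Cyp2j3 probes gave -0.07 ± 0.05 and -0.05 ± 0.04. For Cyp2j4, the probe at the higher p differed by 0.01 ± 0.03, and the other by -0.19 ± 0.14, of which the pair of replicate 4 (-0.98) made up most: without replicate 4 the value was -0.04. Over the family, 5 of 25 probes were at an unadjusted p under 0.05, where 16.6% of all probes were. The median was -0.050, against -0.0050 over all probes. It was -0.0097 among the Cyp2 probes above background on all 12 arrays and -0.087 after the 75th percentile shift.

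Of the Cyp1 genes, known as targets of the aryl hydrocarbon receptor, Cyp1a1 and Cyp1b1 were tested. Cyp1a1, which oxidises polycyclic aromatic compounds, ran from 6.30 through 7.24 to 7.72 in control and from 6.60 through 7.03 to 7.92 in ACE. It was lower in ACE in replicates 1 to 3 and higher in replicates 4 to 6, and the mean difference was 0.02 ± 0.09 (limma unadjusted p = 0.871). The 95% interval of that difference was -0.20 to 0.23. Cyp1b1, above background on 9 arrays, was higher in 4 of 6 pairs by 0.26 ± 0.22 (limma unadjusted p = 0.277), with pair differences from -0.49 to 0.98.

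Cyp3a9, the 3A form tested here, was 10.7 ± 0.42 in control and 10.8 ± 0.49 in ACE (mean ± SD, n = 6), a difference of 0.09 ± 0.05. Of the 14 Cyp4 probes, 9 were higher and 5 lower and 0 were at an unadjusted p under 0.05, against 16.6% of all probes. The median was 0.0089, against -0.0050 over all probes. After the shift to the 75th percentile it was -0.023, against -0.033 over all probes. The Cyp4v3 probes, for an omega-hydroxylase of fatty acids, read 0.06 ± 0.03 (higher in 6 of 6 pairs; limma unadjusted p = 0.0751) and 0.09 ± 0.04 (higher in 5 of 6 pairs). Cyp4f4, with 10 spots, differed by 0.01 ± 0.06, Cyp4f6 by -0.04 ± 0.03 and Cyp4x1, above background on 4 arrays, by 0.15 ± 0.18.

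The probes named Cyp4a8 gave unlike readings. The probe whose end is printed above was above background on all 12 arrays, between 11.4 and 14.8. The other, at rn4 chr5:135547750-135547809, was above background on 1 array and stayed between 1.81 and 3.15. The unnamed probe that shares the run of 28 bases was also above background on all 12 arrays, but between 5.41 and 7.74, with a correlation of 0.677 with the bright probe over the 12 arrays. The bright probe differed by -0.35 ± 0.25 and was lower in 5 of 6 pairs, and most of the difference came from the pair of replicate 5, where control was at 14.8 and ACE at 13.0. Without replicate 5 the value was -0.07. The level of Cyp4a8 is therefore uncertain in these cultures.

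Fmo1, which oxygenates nitrogen and sulfur in drugs, differed by 0.11 ± 0.16 and was higher in 3 of 6 pairs. Fmo5 was 0.09 ± 0.08 higher and Fmo4 differed by -0.06 ± 0.08. Aox1 ran from 12.2 through 13.0 to 13.8 in control and from 12.1 through 12.9 to 13.8 in ACE. The groups overlapped almost entirely, with 3 pairs higher and 3 lower, a difference of -0.04 ± 0.04 (limma unadjusted p = 0.325) and a 95% interval of -0.14 to 0.05.

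Among the carboxylesterases, which split esters and amides, 1 of 7 tested probes was at an unadjusted p under 0.05, against 16.6% of all probes. This was Ces5a, a secreted form. It was 6.95 to 7.56 in control (median 7.28) and 7.17 to 7.74 in ACE (median 7.51). It was higher in ACE in 6 of 6 pairs, with overlapping groups, by 0.20 ± 0.06 (SE, n = 6 pairs; limma unadjusted p = 0.0118, adjusted p = 0.198). The pair differences ran from 0.05 to 0.45. Ces1f was also higher in 6 of 6 pairs, by 0.42 ± 0.18 (limma unadjusted p = 0.0526), but it was above background on 6 arrays only, and its value without replicate 4 was 0.22. Ces2i gave -0.44 ± 0.38, which became -0.03 without replicate 6, where the control array read 7.28 and the ACE array 4.77. Ces2c differed by -0.08 ± 0.06. Ces1a had a missing array, so its fit for the brighter probe (0.08 ± 0.26) rested on 5 pairs.

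**Figure D3:**
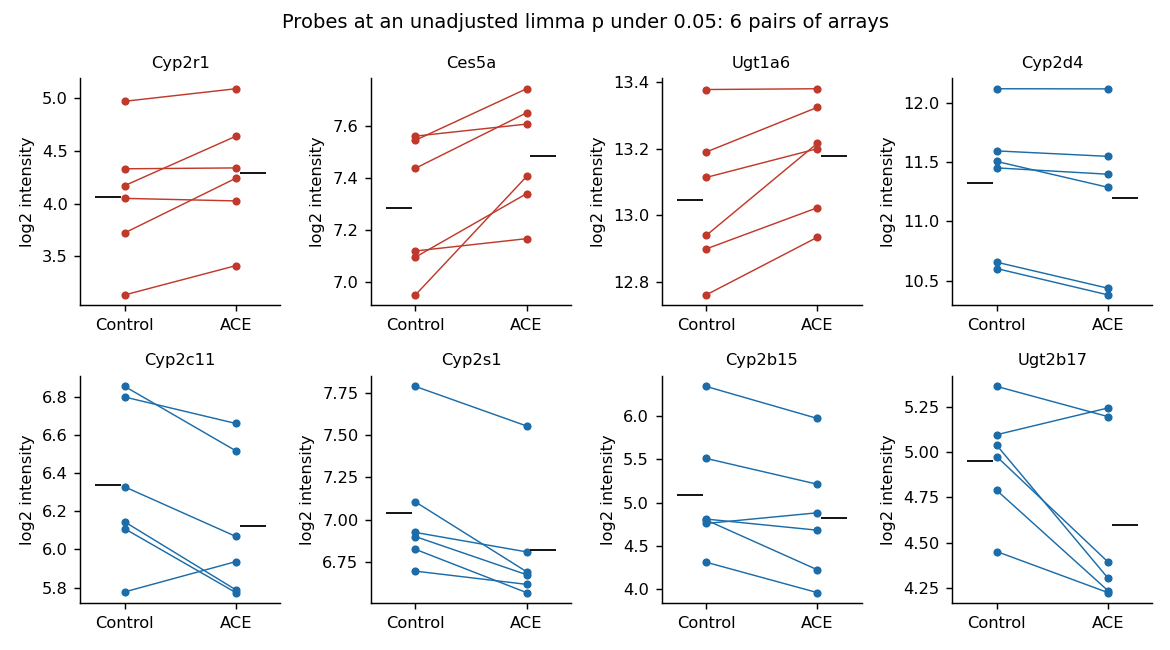
Quantile-normalised log2 intensity (vertical axes) in control and ACE for the 8 probes at an unadjusted limma p under 0.05. Each line joins the control and ACE array of a replicate, and black bars are group means. The lines run mostly parallel, and Ces5a, Ugt1a6, Cyp2d4 and Cyp2s1 move the same way in all 6 pairs.

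Of the glucuronosyltransferases, Ugt1a6 was read by a pair of probes on rn4 chromosome 9. The probe at chr9:87098271-87098330 ran from 12.8 through 13.0 to 13.4 in control and from 12.9 through 13.2 to 13.4 in ACE. It was higher in ACE in 6 of 6 pairs by 0.13 ± 0.04 (limma unadjusted p = 0.0122, adjusted p = 0.199), with pair differences from 0.002 to 0.28. The probe at chr9:87097621-87097680 differed by 0.03 ± 0.05 and was higher in 3 of 6 pairs. Transcripts of the Ugt1a locus are known to share their last exons, so a probe there reads more than 1 isoform, and where these probes lie in the transcript was not determined. Ugt1a9 differed by -0.03 ± 0.07.

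The probe listed as Ugt2b17, whose accession now belongs to Ugt2b15, was 4.45 to 5.36 in control (median 5.00) and 4.22 to 5.24 in ACE (median 4.35). It was lower in ACE in 5 of 6 pairs by -0.35 ± 0.12 (limma unadjusted p = 0.0233, adjusted p = 0.235), and it was above background on 10 arrays. The value shrank to -0.09 with the normexp background, and the unadjusted p rose above 0.05 there and without replicate 2, 4 or 5. Ugt2b37, also of the subfamily that conjugates steroids, differed by -0.04 ± 0.13.

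Most glutathione S-transferase probes read slightly lower in ACE. Of 21 tested probes, 16 were lower and 5 higher, 0 had an unadjusted p under 0.05 (16.6% over all probes), and the family median was -0.049, against -0.0050 over all probes, of which 52.2% were lower. The median stayed below 0 after the shift to the 75th percentile (-0.062, with -0.033 over all probes), after the normexp background (-0.060) and in the deposited values (-0.038). By pair the family median was -0.074, -0.14, -0.051 and -0.089 in replicates 1 to 4 and 0.017 and 0.038 in replicates 5 and 6. It was thus below 0 in 4 of 6 culture experiments. Among the astrocyte markers 10 of 13 probes read lower, 1 of them (a probe of S100b) at an unadjusted p under 0.05, with a median of -0.067. The mean log2 level of the astrocyte list ran from 13.0 to 14.2 in control and from 13.0 to 14.1 in ACE, and the part of astrocytes in the Gst values was not tested.

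Single members of the family were measured closely. Gsta4 was 16.2 ± 0.51 in control and 16.1 ± 0.49 in ACE (mean ± SD, n = 6), lower in 5 of 6 pairs by -0.04 ± 0.03. Gstp1 was 15.02 ± 0.28 and 14.99 ± 0.26, a difference of -0.04 ± 0.04 with a 95% interval of -0.13 to 0.06. Gstt1 was lower in 6 of 6 pairs by -0.06 ± 0.03 (limma unadjusted p = 0.0836). Gsto1, which reduces dehydroascorbate and methylated arsenic, differed by -0.05 ± 0.03, and Gstz1, the maleylacetoacetate isomerase of tyrosine breakdown, by -0.03 ± 0.04.

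In the mu class, 7 of 8 tested probes were lower: Gstm1 by -0.05 ± 0.04, Gstm5 by -0.06 ± 0.04, Gstm7 by -0.05 ± 0.06 and Gstm2 by -0.12 ± 0.09. Gstm6l read -0.12 ± 0.05 (limma unadjusted p = 0.0525), between -0.25 and -0.24 in replicates 1 to 3 and between -0.05 and 0.02 in replicates 4 to 6. For Gstm3, the tested probe was above background on 4 arrays and the other on 2, so this gene had little signal in either probe.

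Names in the alpha class need care. The name Gsta5 covered a probe on rn4 chromosome 8, at 83211804-83211863 (-0.07 ± 0.05), and a pair on chromosome 9 whose accession now belongs to Gsta3 (-0.04 ± 0.05 and 0.01 ± 0.12). The probe listed as Gsta3 now belongs to Gsta1, and differed by 0.01 ± 0.05. No alpha class probe was at an unadjusted p under 0.05 (0 of 5). Sulfotransferases were tested on 3 probes: Sult1a1 differed by -0.07 ± 0.12, Sult4a1 by 0.03 ± 0.10 and Sult2b1 by -0.07 ± 0.15.

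**Figure D4:**
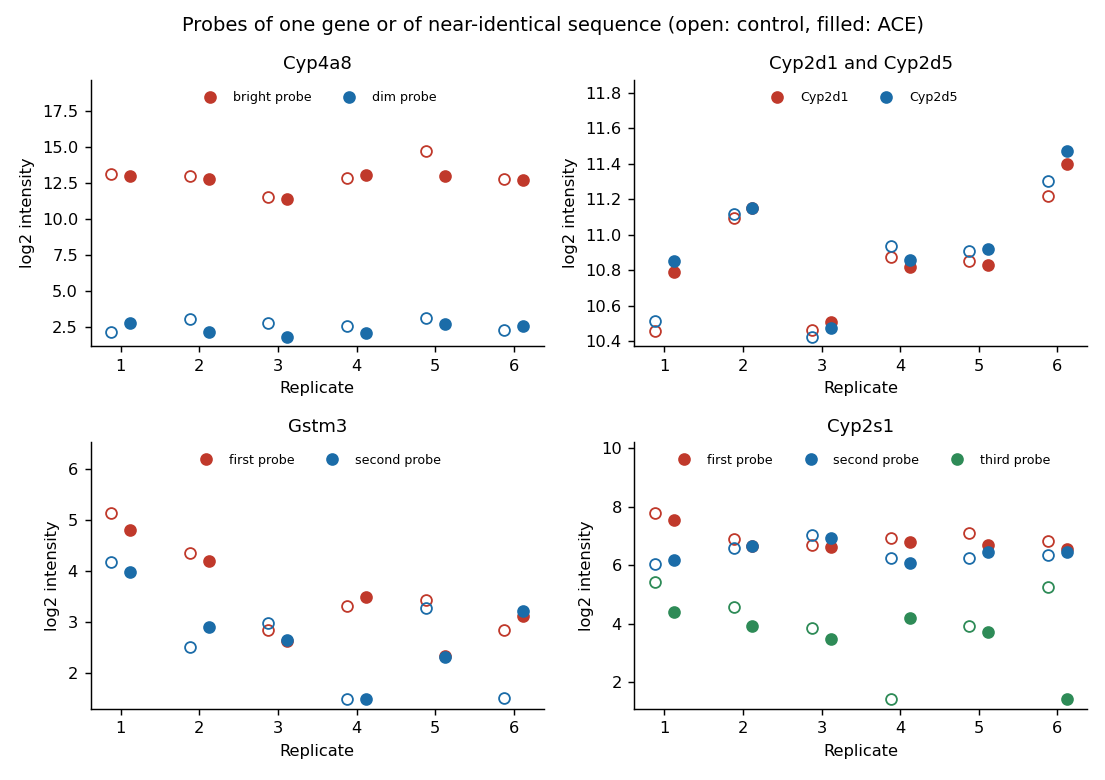
Log2 intensity (vertical axes) by replicate (horizontal axes) for probes of a single gene or of near-identical sequence, with open points for control and filled points for ACE. The bright Cyp4a8 probe lies between 11.4 and 14.8 and the dim one between 1.81 and 3.15, the Cyp2d1 and Cyp2d5 probes nearly coincide, and the Cyp2s1 probes differ from each other.

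Over the genes read by several tested probes (12 genes), all probes had the same sign in 6 genes and differed in sign in 6. In Cyp2s1, Cyp2d4 and Ugt1a6, the probe at an unadjusted p under 0.05 stood beside another probe, also above background on all 12 arrays, with a difference between 0.00 and 0.04. With the tested probes of a gene averaged, 5 of 69 genes were at an unadjusted limma p under 0.05, against 16.5% of all genes tested in that way.

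The levels varied between culture experiments more than the pair differences did. For 56 of the 57 probes above background on all 12 arrays, the standard deviation of the 6 replicate means, each the average of the control and ACE array, exceeded that of the 6 pair differences. The medians were 0.39 and 0.14, with a median ratio of 2.71. Over all such probes the medians were 0.25 and 0.11, and 88.9% of probes had the larger spread between replicates. The exception was a Cyp2j4 probe, with its single wide pair.

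Among the 57 probes above background on all 12 arrays, the 4 that varied most between replicates were those of Ugt2b37, Gstm6l, Cyp4a8 and Cyp4f40. Ugt2b37 read 7.85 in the control and 7.68 in the ACE array of replicate 1, and at most 5.82 on the other 10 arrays. Gstm6l likewise read 8.21 and 7.97 in replicate 1 and at most 6.50 elsewhere. Both were thus set by replicate 1, which also differed in scan day and software version, whose part in these levels was not tested. Gsta4 had replicate means with a standard deviation of 0.50 and pair differences with 0.04, and Gsto1 had 0.08 and 0.06, so that Gsto1 was steady in every culture.

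**Figure D5:**
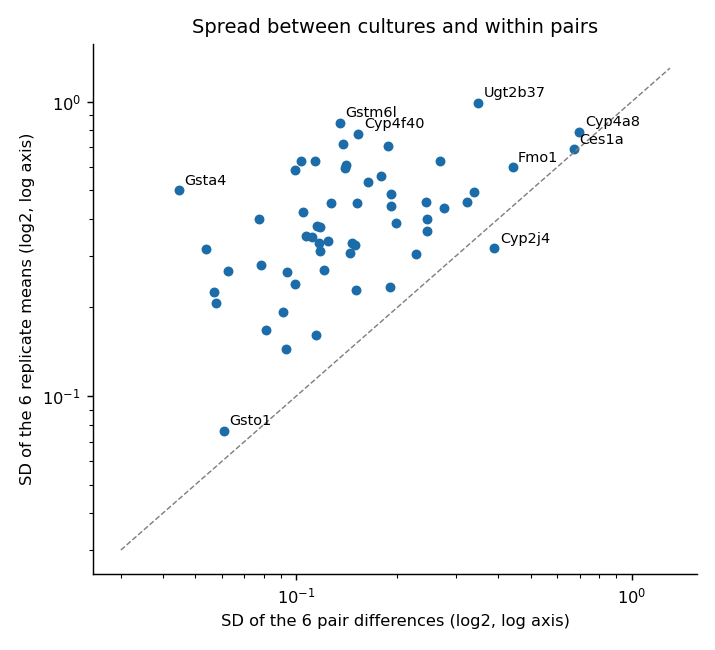
Standard deviation of the 6 replicate means (vertical axis, log scale) against that of the pair differences (horizontal axis, log scale) for the 57 probes above background on all 12 arrays. Pairs number 6 except for Ces1a, with 5, and the dashed line marks equality. All points but 1, a Cyp2j4 probe, lie above the line.

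The probes most like these over the 12 arrays were found by Pearson's r among 20057 probes above background throughout, as a description, since arrays of a replicate share their cell lot, slide and scan. For Ugt2b37 they were Ctnnal1, Nob1 and Olr7 (r = 0.983, 0.983 and 0.978). For Gstm6l they were Olr775, Kpna4 and Gja10 (r = 0.994, 0.994 and 0.989). Cyp4f40 was most like Lcat, Spag4 and Ccdc113 (r = 0.989, 0.983 and 0.982), and the bright Cyp4a8 probe was most like Nrip1, Lmnb1 and AY387058 (r = 0.959, 0.958 and 0.949).

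The partners of these enzymes gave a similar picture. Of 91 probes for 78 genes that supply electrons, regulate, follow or export, 82 were tested, 0 passed the adjusted threshold, 2 were higher and 3 lower at an unadjusted p under 0.05, where 6.9% of all probes were higher and 9.73% lower, and the median was 0.0014. Pon3, a lactonase, was higher in 6 of 6 pairs by 0.15 ± 0.04 (limma adjusted p = 0.183), and Ugp2, which makes UDP-glucose, by 0.06 ± 0.02 in 5 of 6 pairs. Gss, glutathione synthetase, was lower in 6 of 6 pairs by -0.08 ± 0.03, Mgst1, a microsomal glutathione transferase, by -0.08 ± 0.03 in 5 of 6 pairs, and Aldh2, the mitochondrial aldehyde dehydrogenase, by -0.10 ± 0.04 in 5 of 6 pairs.

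None of the 17 probes for electron donors and regulators was at an unadjusted p under 0.05 (0). Por, the reductase that passes electrons to microsomal P450s, differed by 0.00 ± 0.03. The aryl hydrocarbon receptor Ahr, above background on 8 arrays, gave 0.07 ± 0.09, and its repressor Ahrr 0.20 ± 0.10, higher in 4 of 6 pairs. Nfe2l2, the regulator of glutathione and quinone detoxification genes, gave -0.04 ± 0.04 and its target Nqo1 -0.01 ± 0.03. The pregnane receptor Nr1i2 gave -0.11 ± 0.07. Of 20 transporter probes, 0 were at an unadjusted p under 0.05, with Abcb1b at 0.20 ± 0.13 and 0.05 ± 0.10.

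Promoters were searched for the letters known from the response elements of these regulators. The sequences come from RefSeq (build GRCr8), which held 114 promoter entries for 105 of the 125 gene names, each with 250 bases before and 50 after the start. GCGTG, the core to which the aryl hydrocarbon receptor binds, was found on either strand in 25 of the 114 entries (21.9%), against 29.7% of all 33469 promoters. TGACNNNGC, the core of the antioxidant response element, was found in 12 of 114 (10.5%), against 12.1%. Among the entries of the genes tested here, GCGTG was found in 22 of 60, a larger share than over all promoters. TGACNNNGC was found in 8 of these 60. The stretches of 100 bases just before the start of Cyp1b1 and Gstp1, textbook targets of these regulators, are shown as examples, with matches on either strand in capitals. Cyp1b1 lies at GRCr8 chr6:21094465-21094564 on the plus strand, with GCGTG or its reverse complement at 2 places. Gstp1 lies at chr1:210769706-210769805 on the minus strand, with 1 match to TGACNNNGC.
Cyp1b1: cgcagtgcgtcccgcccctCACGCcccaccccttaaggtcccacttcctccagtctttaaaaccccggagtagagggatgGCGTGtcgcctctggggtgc
Gstp1: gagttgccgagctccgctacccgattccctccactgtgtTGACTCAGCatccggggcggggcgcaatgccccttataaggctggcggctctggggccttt
A match to these letters is a description and says nothing about binding in these cultures, where Cyp1b1 and Gstp1 differed by 0.26 ± 0.22 and -0.04 ± 0.04.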

How the data were processed

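Total RNA from the cultures was hybridised to 1-colour (Cy3) Agilent rat arrays. Per the file headers, the authors obtained the background-subtracted processed intensity from Agilent Feature Extraction (11.0.1.1 in replicate 1, otherwise 11.5.1.1), and it was not scaled across arrays. A table deposited by the authors held log2 values, quantile normalised and centred per probe by their methods, and these correlated at 0.995 to 0.998 per array with the centred values computed here and served as an alternative.

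Control spots and outlier-marked spots were left out, log2 intensities were quantile normalised, and the spots of a probe were averaged. Probes above the 20th percentile on at least 7 of 12 arrays, with at least 4 complete pairs, were tested (23796), and 83 of the 155 enzyme probes remained. Each was fitted with limma 3.58.1 in R 4.3.3 with replicate as a block, two-sided, and p-values were adjusted over all probes after Benjamini-Hochberg. The replicate number paired the samples by the study's culture lots: deviations from the group means correlated at 0.449 to 0.912 between a control and an ACE array of the same number, and at -0.439 to 0.390 otherwise. The fit was tested on simulated data. Confidence intervals are at 95%, and the number of arrays limits the precision. An exact signed-rank test over 6 pairs reaches p = 0.03125 at the lowest, with all pairs in the same direction.

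The enzymes, the partner and marker lists and the rule for named genes were chosen with earlier results of these data known. Named genes were textbook members, the 6 probes of lowest p and the 3 of largest change in each direction where the higher group had at least 3 arrays above background, and the 4 with the largest spread of replicate means. Other genes are given as family examples or for uncertain probes, chosen after their values were seen. By accession, 137 of the 155 probes matched a current RefSeq symbol, and 7 of these symbols differed from the name in the file. Probe positions are those of the files (build rn4). Figures were drawn with matplotlib 3.10.9. Nicotine and imidacloprid cultures were not analysed here.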

Additional observations from a re-analysis of the deposited data

Results flagged for a closer look

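In a group of 6 arrays, a named probe was marked where its highest or lowest array stood far from the other 5, by Dixon's test at the 95% level. Of 92 groups tested, 13 were marked. Chance marks about 5% of groups, but some probes had been named for a large spread or change, which a single far array can produce, so the count was not read against that share. Replicate 1 supplied 7 of them, each the highest of its group: Ugt2b37 in control (7.85) and ACE (7.68), Gstm6l in control (8.21) and ACE (7.97), Cyp2s1 at chr1:81009033-81009092 in control (7.79) and ACE (7.55), and Gstm1 in ACE (14.5). In these genes the control and ACE arrays of replicate 1 were both high. Replicate 1 had a scan day and a software version of its own, and the part of these was not tested.

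Ces2c was low in replicate 4 in control (1.49) and ACE (1.44), each the lowest of its group. The bright Cyp4a8 probe was lowest in the ACE array of replicate 3 (11.4), beside a control of 11.5. Fmo5 was highest in the control of replicate 3 (5.20), beside 5.05 in ACE. In 2 cases the partner array did not follow: Ces2i was highest in the control of replicate 6 (7.28, ACE 4.77), and the third Cyp2s1 probe was lowest in the ACE array of replicate 6 (1.43, control 5.26). Without replicate 6 the mean difference of Ces2i was -0.03. That of the Cyp2s1 probe was 0.10 without replicate 6 and -1.22 without replicate 4.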

How the results depend on the processing

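No enzyme probe passed the adjusted threshold under the 15 alternative fits of probes (0 in each). Without the replicate block, the counts at an unadjusted p under 0.05 were 0 for the enzymes, 0 higher, 0 lower and 0 for the partner probes. In that fit only 0.34% of all probes were under the threshold, so these counts say little about the enzymes. Replicate as a random block gave 2 partner probes, where 16.8% of all probes were under the threshold. The deposited values and no filter gave 3 each, where 16.8% and 12.5% of all probes were. The 75th percentile shift gave 9 lower enzyme probes and the deposited values gave 5 higher ones. Averaging probes per gene left 5 of 69 genes. Of all probes or genes, 17.7%, 16.8% and 16.5% were under the threshold in these fits, in either direction. Leaving out a replicate gave 5 to 11 enzyme probes at an unadjusted p under 0.05, 2 to 7 of them higher and 2 to 5 lower, 8 to 16 with the same direction in the pairs left, and 1 to 8 partner probes. Over all probes, the same fits gave 11.8% to 17.5% at an unadjusted p under 0.05 (6.02% to 13.3% of the enzymes) and 14.3% to 18.9% with the same direction. The lowest counts came without replicates 1 and 2 (5 each) and the highest without replicate 4 (11). The family median moved to -0.087 for Cyp2 and -0.12 for Ugt under the 75th percentile shift, which moved the median of all probes to -0.033, to -0.064 for Cyp3 without a filter and to -0.0097 for Cyp2 among probes above background on all 12 arrays. No named probe at an unadjusted p under 0.05 reversed its sign (0). These probes were picked by that p in the same data. Where all 6 pairs had the same direction, leaving out a replicate could not reverse the sign. Ces5a, Cyp2s1 and Ugt1a6 kept their p under the threshold in 14 of 15 alternatives, all but the fit without the replicate block, whereas Cyp2r1 kept it in 6 of 14, Cyp2b15 and Ugt2b17 in 9 of 14, Cyp2c11 in 9 of 15 and Cyp2d4 in 10 of 15. The normexp background shrank Ugt2b17 to -0.09, Cyp2b15 to -0.12, Cyp2c11 to -0.09 and Cyp2r1 to 0.05, each by over 1.5 times. The causes of these shifts were not tested. Replicates 4 to 6, scanned on the same day, were set beside the other replicates. The mean difference had opposite signs in 19 of 46 named probes and the same sign in 27. The share over all probes is not given here, so the count was not read as a result about the enzymes. Examples with wide gaps were Cyp1a1 (0.22 and -0.19), Gstm2 (-0.32 and 0.08), Gstm7 (0.08 and -0.18) and Sult4a1 (-0.21 and 0.26).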
